A study of Mus musculus with 4 samples.

Results

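S3-like nuclei of the mouse kidney were nuclei of proximal tubule type that carried RNA of the genes that mark the third and last segment of the proximal tubule. They were picked on measured counts of 5 genes. A nucleus was a member if it held at least 1 unique molecular identifier (UMI, a tag by which each RNA molecule is counted once) of *Lrp2*, at least 3 UMIs of *Cyp7b1*, *Slc7a13* and *Slc22a19* together with *Cyp7b1* or *Slc22a19* among them, and at most 1 UMI of *Slc5a12*. Of 27343 nuclei kept in the series, 4185 (15.3%) met this rule, 1236 and 870 in controls and 1145 and 934 in knockouts.

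The nuclei came from kidneys of 4 male mice aged 12 weeks, with 1 library per mouse, made by droplet-based single-nucleus RNA-seq that reads the 3′ ends of RNA. All 4 mice were homozygous for a floxed allele of *Tfap2a*, which encodes an AP-2 transcription factor, and the control mice were Cre-negative littermates (Cre-, Tfap2a Flox/Flox). The knockout mice also carried *Hoxb7Cre* (Hoxb7Cre+;Tfap2a fl/fl), which is active in the collecting duct and the lower urinary tract and not in the lineage that forms the proximal tubule. A middle slice of the kidney was used after the cortex had been trimmed, so the abundance of nuclei depends on the cut, and the strain background was not given in the sources used here.

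The proximal tubule takes back most of the filtered solutes. Its first segments, S1 and S2, lie in the cortex and carry out the bulk uptake of glucose, amino acids and phosphate, while S3 runs straight into the outer stripe of the outer medulla, takes up what is left with transporters of high affinity, and is rich in peroxisomes, peptidases of the brush border and enzymes of glutathione metabolism. In the male mouse the S3 segment is known for many genes that depend on androgen.

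Depth and quality differed between the libraries. The S3-like nuclei held 3474685 to 4481228 UMIs per mouse, with a median of 3318 to 3980 UMIs and 1895 to 2086 genes per nucleus. Mitochondrial UMIs made up a median of 1.59% and 0.797% in controls and 0.902% and 0.593% in knockouts. The share of free RNA in their UMIs, estimated from markers of other cell types in barcodes under 100 UMIs, was 20.2% and 12.7% in controls and 19.8% and 5.17% in knockouts. At least 2 UMIs of markers of other classes were found in 58.6% to 72.1% of the S3-like nuclei per mouse, and 7.92% to 9.08% were called doublets. Of the cell barcodes of kept nuclei, 7 to 18 were shared by any pair of libraries, and 0 or 1 of them were S3-like in both. The RNA counted here does not show whether the floxed exons were lost. In S3-like nuclei *Tfap2a* had 4, 6, 8 and 5 UMIs in the mice named control 1, control 2, knockout 1 and knockout 2, the order in which all values of 4 mice are given here.

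The genes of the rule describe the members and are no finding. *Cyp7b1*, which encodes an oxysterol hydroxylase, had at least 1 UMI in 88.8%, 94.6%, 90.1% and 88.0% of S3-like nuclei, with a median of 11, 21, 13 and 14 UMIs. *Slc7a13*, a transporter of aspartate, glutamate and cystine, was seen in 94.7%, 98.0%, 93.2% and 96.0%. *Slc22a19*, an organic anion transporter, was seen in 69.7%, 69.0%, 57.4% and 74.7%. The nuclei thus varied mainly in *Slc22a19*: all 3 genes were detected in 55.1%, 62.5%, 43.9% and 60.6% of the members, and 1 gene alone in 0.920% to 3.23%. Of the members, 68, 18, 84 and 19 held exactly 3 UMIs of the 3 genes, the lowest number allowed, and 73, 37, 132 and 22 nuclei held 2 and fell just outside. In the former *Slc34a1*, the phosphate transporter of S1 and S2, stood at 2110, 1575, 2971 and 2244 CPM (UMIs of a gene scaled to the same total for the sum over all nuclei of a group in 1 mouse, the unit of all levels here), and in the latter at 2074, 1123, 2792 and 1477, against 923, 481, 1291 and 621 over all members. Exactly 1 UMI of *Slc5a12* was held by 59, 21, 62 and 32 members, while 5, 3, 10 and 1 nuclei held 2 and fell outside.

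The label was checked on *Slc6a18*, a marker of S3 that the rule did not use and that encodes a transporter of neutral amino acids. For comparison, *Slc5a12*-high nuclei were taken as nuclei with *Lrp2*, at least 2 UMIs of *Slc5a12*, a lactate transporter of the early proximal tubule, and at most 1 UMI of the 3 S3 genes, which gave 1326, 484, 1415 and 1205 nuclei. *Slc6a18* stood at 1286, 1865, 1200.4 and 1518 in S3-like nuclei and at 65.1, 61.3, 61.6 and 35.96 in *Slc5a12*-high nuclei, a ratio of the means of 26.2. It was thus higher in S3-like nuclei in each of the 4 mice. To compare shares of nuclei at 1 depth, each nucleus of at least 1000 UMIs was thinned to 1000 and the groups were picked again from the thinned counts, which left 699, 596, 657 and 588 S3-like nuclei. Of these, 72.2, 82.7, 70.3 and 76.2% held a UMI of *Slc6a18*, against 7.11, 3.79, 7.29 and 3.18% of *Slc5a12*-high nuclei and 6.20, 4.58, 7.69 and 3.81% of nuclei picked on endothelial markers, which should lack the gene. Without thinning the share among all members was 90.0, 96.4, 88.7 and 96.0%. The median depths were 3318 to 3980 UMIs in S3-like nuclei, 2669 to 3096 in *Slc5a12*-high nuclei and 1445 to 1589 in endothelial nuclei. All 10 markers of S1 and S2 that were compared were lower in S3-like nuclei, with log2 differences from -5.35 for *Slc5a2*, the glucose transporter SGLT2, to -1.10 for *Slc22a6*, the organic anion transporter OAT1. On these genes, which the rule did not use, the label held.

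**Figure D1:**
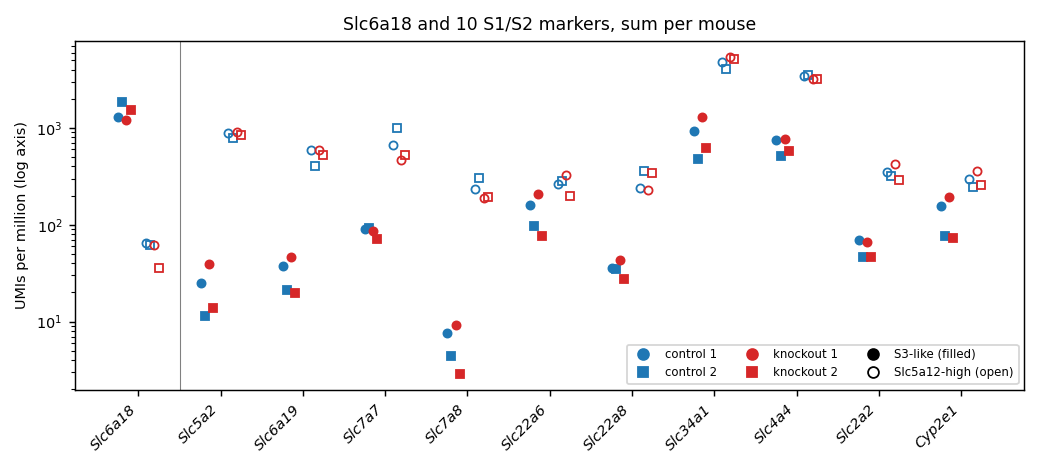
Levels of *Slc6a18* and 10 markers of S1 and S2 (x axis) in CPM on a log axis (y axis), with 1 point per mouse; filled points are S3-like nuclei, open points *Slc5a12*-high nuclei, blue control and red knockout mice. *Slc6a18* lies at 1200.4 to 1865 in S3-like and at 35.96 to 65.1 in *Slc5a12*-high nuclei, and every S1 and S2 marker lies lower in S3-like nuclei of each mouse.

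Markers of other kidney cells were low in S3-like nuclei but not at 0. The 6 thick ascending limb markers summed to 778 to 1082 CPM in S3-like nuclei, 677 to 1239 in *Slc5a12*-high nuclei and 7779 to 12142 in all other kept nuclei. Their sum in free RNA was 4325 to 8661. The 5 distal and connecting tubule markers summed to 119.8 to 500.8, the 6 principal cell markers to 84.6 to 207, the 6 endothelial markers to 39.7 to 68.4, the 6 intercalated cell markers to 13.5 to 34.4, the 6 podocyte markers to 6.36 to 52.0, the 5 thin limb markers to 21.6 to 35.5 and the 6 interstitial markers to 10.6 to 18.0. For each of these classes the sum was lower than in the other kept nuclei of the same mouse. The thick ascending limb sums were 1082 and 924 in controls and 785 and 778 in knockouts, the distal sums 272 and 119.8 and 500.8 and 308, and the thin limb sums were 35.5 and 34.6 and 25.6 and 21.6. None of these 3 sums overlapped between the genotypes, and those of the other classes did. Of all single genes tested, 28.5% did not overlap, so the 3 sums are not read as a difference between the genotypes. The part of these markers in the genotype differences below was not tested.

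Immune markers were the exception. Their sum was 194 to 249.8 CPM in S3-like nuclei, 23.5 to 44.0 in *Slc5a12*-high nuclei and 89.5 to 143 in the other kept nuclei, and it came mostly from *Csf1r* and *Cd74* among 6 genes. *Csf1r*, the receptor for colony stimulating factor 1, known from macrophages, stood at 96.4, 105, 73.2 and 134 in S3-like nuclei, at 3.69, 4.47, 4.04 and 3.91 in *Slc5a12*-high nuclei and at 29.2, 43.7, 22.2 and 19.5 in free RNA. Control and knockout mice overlapped, and each *Slc5a12*-high sum was lower than each S3-like sum. After thinning to 1000 UMIs, 10.9, 11.1, 11.4 and 14.6% of S3-like nuclei held a *Csf1r* UMI, against 0.601, 0, 0.499 and 0.329% of *Slc5a12*-high nuclei and 0.427, 0.327, 0.265 and 0.424% of endothelial nuclei. The UMIs were spread over many nuclei: without thinning, 337, 289, 246 and 350 S3-like nuclei held *Csf1r*, and the 5 nuclei with most held 18, 18, 16 and 19 of 432, 378, 292 and 465 UMIs. *Cd74*, the invariant chain of MHC class II, stood at 105, 76.4, 103 and 102 in S3-like and 23.2, 35.7, 34.8 and 15.1 in *Slc5a12*-high nuclei, but also at 106, 270.0, 131 and 93.6 in free RNA. *Ptprc*, the CD45 gene that defines blood cells, had only 3, 5, 10 and 4 UMIs in S3-like nuclei, and the macrophage genes *Cd163* and *Mrc1* stood at 0 to 0.277 and 1.15 to 2.77 CPM. The level of *Csf1r* did not differ between genotypes beyond the spread between mice (log2 difference 0.01 (SE 0.29)).

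**Figure D2:**
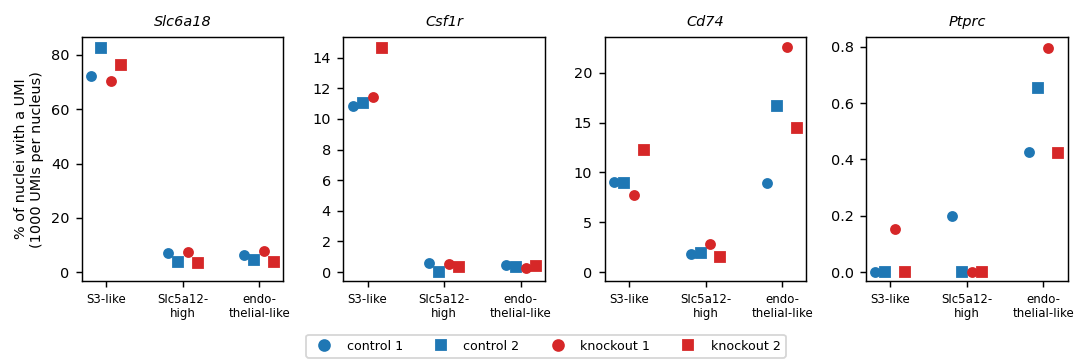
Percentage of nuclei with at least 1 UMI after thinning each nucleus to 1000 UMIs (y axis) for *Slc6a18*, *Csf1r*, *Cd74* and *Ptprc* in S3-like, *Slc5a12*-high and endothelial-like nuclei (x axis), with 1 point per mouse, blue for control and red for knockout. *Csf1r* lies at 10.9% to 14.6% in S3-like nuclei and at 0.601% or less in both other groups, while *Ptprc* is at 0.152% or less in S3-like nuclei.

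S3-like and *Slc5a12*-high nuclei differed in many genes. Both groups were picked on genes counted in the same nuclei, so these differences are a description of the members, and the threshold of an adjusted p under 0.05 (edgeR quasi-likelihood test with the mouse as a term) only sorts out which differences recurred from mouse to mouse. By that threshold 19.9% of 17166 genes were higher in S3-like nuclei and 18.4% were lower, 3414 and 3157 genes or 38.3% in all. The rule genes are left out of all that follows. The number of genes lower fell to 2081 without the mouse term, and the number higher to 2176 with each nucleus thinned to 1000 UMIs.

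The 10 genes with the largest difference towards S3-like nuclei were 7 protein-coding genes and 3 long noncoding RNAs. *Slc5a4a*, a member of the sodium glucose cotransporter family, stood at 308, 399, 260.2 and 341 in S3-like nuclei and at 1.58, 0.638, 2.52 and 0.782 in *Slc5a12*-high nuclei, a log2 difference of 7.61 (SE 0.19). *Esr1*, the estrogen receptor alpha, stood at 526, 727, 479.8 and 703 against 3.95, 10.2, 6.81 and 10.7, a difference of 6.24 (SE 0.13). *Mro*, a gene named for its expression in the male gonad, stood at 229, 374, 239 and 194 against 1.32, 1.28, 1.26 and 0.521, a difference of 7.72 (SE 0.15). Each of these 3 genes was higher in S3-like nuclei in each mouse. Their levels in free RNA were 30.0 to 54.8 for *Slc5a4a*, 50.8 to 69.9 for *Esr1* and 29.6 to 69.4 for *Mro*, above those in *Slc5a12*-high nuclei, so the few UMIs there are not read as expression. *Ror2*, a receptor of Wnt5a signals, was at 69.6, 60.0, 61.9 and 86.3 against 1.32, 0, 0.757 and 0.521. *Chrdl1*, an antagonist of bone morphogenetic proteins, was at 124, 142, 87.7 and 81.4 against 2.64, 3.19, 1.01 and 0.261. *Mfsd2a*, which carries lysophosphatidylcholine into cells, was at 82.8, 124, 50.6 and 77.1 against 0.791, 1.28, 1.77 and 0.782. *C8a*, a chain of the complement component that forms the membrane attack complex, was at 258, 295, 229 and 309 against 5.54, 3.19, 5.55 and 1.30. The remaining 3 were noncoding: *Gm30551* at 65.8, 182, 87.2 and 44.3 against 1.32, 0.638, 1.26 and 0.782, *Gm33472* at 57.1, 80.5, 49.9 and 74.3 against 1.05, 0, 0 and 0, and *Gm41162* at 60.0, 67.5, 48.4 and 63.6 with no UMI in any of the 4 *Slc5a12*-high sums. For *Gm41162* a floor of 3 counts over the group gives a level at least 261-fold higher in S3-like nuclei. *Gm33472* (chromosome 14, 59043940 to 59045944, GRCm38.p6) ends 218 bases before *Gm41162* begins (59046163 to 59072002), so the counts of these neighbours may not be independent.

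The 10 genes with the largest difference towards *Slc5a12*-high nuclei included *Slc5a2* at 25.2, 11.3, 39.6 and 13.8 in S3-like and 887, 779, 909 and 843 in *Slc5a12*-high nuclei. *Angpt1*, a ligand of the endothelial receptor Tie2, was at 7.14, 5.53, 10.5 and 5.47 against 418, 339, 362 and 373. Both genes were far lower in each S3-like sum than in any *Slc5a12*-high sum. *Epb41l3*, a protein of the membrane skeleton, was at 12.1, 9.96, 12.0 and 9.79 against 708, 469, 404 and 308. *Col8a1*, a collagen chain, was at 1.79, 3.597, 1.00 and 0.576 against 88.6, 60.6, 67.9 and 67.7. *Ablim3*, an actin-binding protein, was at 0.669, 0.830, 0.251 and 0.288 against 77.8, 94.4, 57.3 and 54.7. A further 4, *Gm12962*, *Gm48606*, *4921539H07Rik* and *D630023F18Rik*, had log2 differences from -7.54 to -6.29.

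Amino acid transporters were divided between the segments: of 16 tested beside the rule gene, 8 were higher and 8 were lower in S3-like nuclei, with a median log2 difference of -0.30 against 0.06 over all genes tested. The higher ones included *Slc7a12*, a transporter of the same family as *Slc7a13*, at 129, 73.9, 70.4 and 67.6 against 5.01, 4.47, 2.27 and 0.782, a difference of 4.84 (SE 0.18). *Slc38a3*, which carries glutamine for the making of ammonia, was at 33.0, 50.4, 33.3 and 72.8 against 1.05, 1.28, 1.77 and 0.521, a difference of 5.25 (SE 0.25). *Slc3a1*, the heavy chain of the cystine transporter, was 2.14 times as high in S3-like nuclei, while *Slc7a9*, the light chain that pairs with it, was 3.28 times as high in *Slc5a12*-high nuclei. *Slc6a6*, the taurine transporter, was at 754, 526, 639.7 and 833 against 304, 249, 275 and 419. Lower in S3-like nuclei were the apical neutral amino acid transporter *Slc6a19*, at 37.3, 21.3, 46.1 and 19.9 against 588, 409, 588 and 529, and the basolateral transporters *Slc7a7*, *Slc7a8*, *Slc3a2*, *Slc16a10* and *Slc43a2*, with differences of -2.97, -5.23, -1.79, -3.24 and -3.23. *Slc6a18* and *Slc6a19* thus lay on opposite sides. The counts of this and each following list stand beside 19.9% higher and 18.4% lower over all genes tested.

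Sugar and monocarboxylate transporters showed the same division. Of 13 tested, 5 were higher and 6 lower. *Slc5a1*, the glucose transporter SGLT1 of high affinity, was at 44.0, 59.2, 41.9 and 37.7 in S3-like and at 7.12, 10.8, 6.05 and 3.65 in *Slc5a12*-high nuclei, a difference of 2.74 (SE 0.15), opposite in sign to that of *Slc5a2* (-5.35 (SE 0.19)). *Slc5a8*, the high-affinity lactate transporter, was at 533, 628, 427 and 466 against 58.5, 41.5, 67.4 and 27.1. *Slc5a10*, a mannose and fructose transporter, was 3.82 times as high in S3-like nuclei, and *Slc13a2*, the citrate transporter NaDC1, 3.15 times. *Slc2a2*, the basolateral glucose transporter GLUT2, was at 69.4, 46.8, 65.7 and 46.3 against 354, 322, 419.8 and 288. Its counterpart of late segments, *Slc2a1* (GLUT1), was at 10.5, 9.41, 9.27 and 8.63 against 10.0, 11.5, 9.84 and 4.95 and did not pass the threshold, with a difference of 0.05 (SE 0.20).

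Of 23 organic ion transporters tested beside *Slc22a19*, 11 were higher and 9 lower, with a median log2 difference of 0.22. *Slc22a26*, an organic anion transporter encoded in the same gene cluster as *Slc22a19*, was at 63.4, 102, 25.3 and 53.8 against 1.05, 0.638, 2.27 and 0.782, a difference of 5.29 (SE 0.28). *Slc22a7* (OAT2) was at 69.0, 22.7, 72.7 and 38.3 against 6.33, 0, 10.8 and 1.04, with the number 1 mouse above the number 2 mouse in both genotypes. *Slc22a6* and *Slc22a8*, the OAT1 and OAT3 carriers of organic anions in S2, differed by -1.10 and -3.05. *Abcc4*, an efflux pump of the apical membrane, was at 13.8, 21.3, 8.77 and 9.50 against 157, 185, 129 and 189.7. *Slc47a1*, the apical exporter of organic cations, was at 1003, 1063, 1050.2 and 1204 against 909, 961, 934 and 1089 and did not pass the threshold.

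Genes of endocytosis and phosphate and bicarbonate handling were lower in S3-like nuclei in 8 of 13 tested beside *Lrp2* and higher in 2, with a median of -0.95. *Slc34a1* was at 923, 481, 1291 and 621 against 4765, 4043, 5453 and 5208 and *Slc34a3*, the second phosphate transporter, at 3.12, 2.21, 6.52 and 3.17 against 116, 76.6, 113 and 94.1. *Slc4a4*, the basolateral bicarbonate transporter, and *Slc9a3*, the apical proton exchanger, differed by -2.41 and -2.58. *Dab2*, an adaptor of megalin uptake, was at 1031, 907, 1057 and 768 against 4231, 5312, 3992 and 4639.7, whereas *Cubn*, the partner receptor of megalin, was at 826, 847, 688 and 909 against 774, 670.1, 666 and 786 and did not pass the threshold. The 2 higher genes were *Aqp1*, a water channel, 1.99 times as high, and *Atp11a*, a phospholipid flippase, at 2059, 2406, 1824 and 1887 against 216, 238, 217 and 119.

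Brush border enzymes and glutathione genes leaned to S3-like nuclei, with 12 of 21 tested higher and 5 lower and a median of 0.74. The metalloendopeptidases meprin alpha and beta, *Mep1a* and *Mep1b*, were at 748, 686, 677 and 696 against 156, 138, 169 and 87.8 and at 393, 461, 370.2 and 407 against 10.5, 7.02, 12.6 and 5.99. *Mme* (neprilysin) differed by 3.36 (SE 0.13) and *Ace* by 2.87 (SE 0.19). The enzymes that make glutathione were all higher, *Gclc* by 2.26, *Gclm* by 1.39 and *Gss* by 1.83. *Ggt1*, which splits glutathione at the brush border, was 1.66 times as high. Among the 5 lower genes were *Alpl*, the tissue-nonspecific alkaline phosphatase, at 25.9, 23.0, 31.6 and 15.3 against 362, 342, 412 and 483, and *Gpx3*, the plasma glutathione peroxidase, at 1167, 586, 1597 and 535 against 5896, 4013, 6236 and 4949. *Gpx3* and *Gpx1* were higher in the number 1 mice of both genotypes, as were the share of free RNA and the mitochondrial percentage.

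Fatty acid oxidation and peroxisome genes did not lean one way: 13 of 32 were higher and 11 lower, with a median of 0.22. *Acsm3*, a medium-chain acyl-CoA synthetase, was at 1023, 1046, 806 and 520.0 against 78.3, 47.2, 93.1 and 25.01, *Acadm*, the medium-chain acyl-CoA dehydrogenase, at 1082, 752, 1243 and 1164 against 247, 170.4, 259 and 139, and *Acox2*, the peroxisomal oxidase of branched chains, at 108, 147, 183 and 84.0 against 14.5, 7.02, 28.8 and 7.56. Lower were *Ppargc1a*, a coactivator of mitochondrial genes, with a difference of -1.77 (SE 0.08), *Ppara*, the receptor that drives fatty acid oxidation, with -0.92 (SE 0.11), and *Acaa2*, a mitochondrial thiolase, with -2.80 (SE 0.11). Of 12 gluconeogenesis and ammonia genes, 5 were higher and 6 lower. *G6pc*, which releases glucose, was at 99.7, 54.0, 114 and 78.6 against 422, 451, 409 and 884, and *Gatm*, the first enzyme of creatine synthesis, at 81.0, 35.97, 107 and 28.2 against 1513, 1713, 1304 and 1268, while *Pck1*, the enzyme of the first committed step, differed by 0.49 (SE 0.08). *Pfkfb3*, an activator of glycolysis, went the other way, at 69.6, 89.1, 73.4 and 83.5 against 5.54, 7.66, 6.05 and 7.30.

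Of 19 cytochrome P450 genes tested beside *Cyp7b1*, 5 were higher and 13 lower, with a median of -0.89. *Cyp51*, an enzyme of cholesterol synthesis, was at 277, 283, 317 and 299 against 39.8, 47.2, 48.4 and 22.1, and *Cyp2d9*, a steroid hydroxylase of male mice, at 106, 62.3, 104 and 145 against 15.0, 8.93, 17.9 and 21.6. *Cyp24a1*, which breaks down active vitamin D, and *Cyp27b1*, which makes it, were both near the floor in S3-like nuclei, at 1.79, 1.11, 2.01 and 3.17 and 0.446, 0.553, 1.00 and 0.288. Of 24 transcription factors, 6 were higher and 12 lower. *Hnf4a*, a main regulator of the proximal tubule, was at 383, 426, 399 and 436 against 324, 363, 383 and 390.1 and did not pass the threshold. *Hnf4g* was higher by 0.75 and *Pax8*, a factor of kidney development, by 0.61. *Maf* was the factor with the largest difference of the 24, at 169, 98.2, 184 and 148 against 847, 546, 786 and 972. Of 18 clock genes 4 were higher and 7 lower, and of 15 immediate early and heat shock genes 1 and 2. Of 14 injury genes 3 were higher and 3 lower, shares near the 19.9% and 18.4% of all genes. *Havcr1*, the gene of the injury marker KIM-1, was one of the 3 higher, at 26.3, 47.6, 43.9 and 48.6 against 2.11, 2.55, 3.03 and 3.13. *Dcdc2a* and *Cp* of the same list had means of 67.5 and 123 in S3-like against 3.76 and 35.9 in *Slc5a12*-high nuclei. *Lcn2*, *Vcam1* and *Cdkn1a* stood near the floor, at 0.251 to 1.38, 0.223 to 1.66 and 0.863 to 4.46 CPM in S3-like nuclei.

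**Figure D3:**
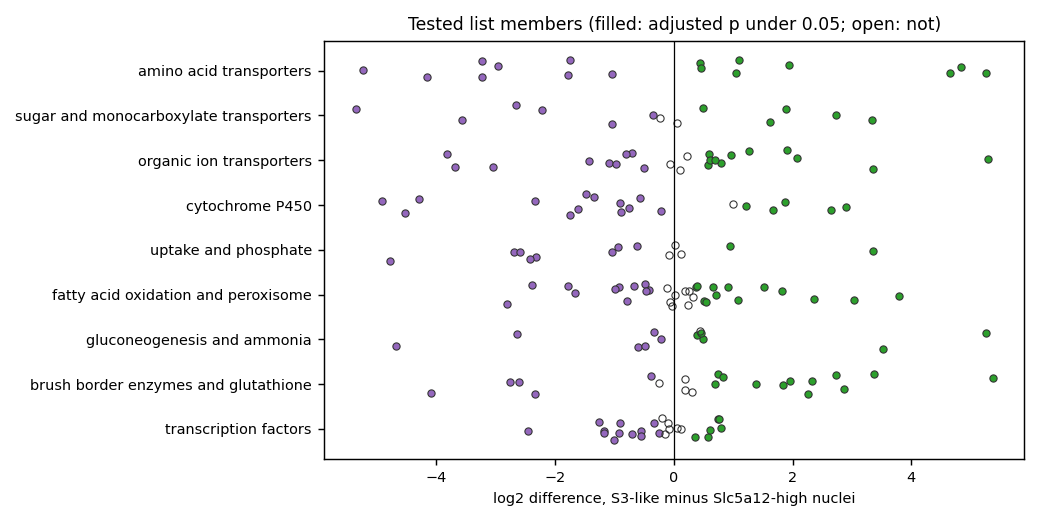
Log2 difference of the summed UMIs between S3-like and *Slc5a12*-high nuclei (x axis, positive for S3-like) for the tested members of 9 gene lists (y axis), 1 point per gene without the rule genes. Filled points passed an adjusted p of 0.05. Transporter lists spread to both sides, uptake and phosphate genes lie mostly to the left and brush border and glutathione genes mostly to the right.

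A second comparison was added after the data had been seen. Nuclei with *Lrp2* and at least 3 UMIs of *Slc7a13* but no *Cyp7b1*, no *Slc22a19* and at most 1 UMI of *Slc5a12* (*Slc7a13*-only nuclei) numbered 933, 451, 828 and 670. Against them 12.3% of 16919 genes were higher in S3-like nuclei and 11.3% lower, 2075 and 1919 genes. *Slc6a18* was intermediate in these nuclei, at 646, 788, 632 and 762, and *Slc34a1* lay between its levels in both other groups, at 3233, 3176, 3643 and 3446. Some of the genes named above were low in *Slc7a13*-only nuclei too: *Chrdl1* stood at 2.997, 2.68, 0.998 and 0.371 in *Slc7a13*-only nuclei, *Ror2* at 2.10, 1.61, 2.66 and 0.741, *Gm41162* at 0.300, 0.536, 0.665 and 0.371. *Slc5a4a*, *Esr1* and *Mro* in contrast were intermediate, at 63.5 to 98.5, 221 to 284 and 58.2 to 77.7. *Slc22a6* and *Slco1a1*, an organic anion transporter, were higher in *Slc7a13*-only nuclei (503, 544, 544 and 456, and 541, 355, 426 and 355) than in S3-like nuclei (161, 96.6, 206 and 76.3, and 223, 113, 188 and 84.0).

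Whether the abundance of S3-like nuclei differed by genotype was asked next. They made up 15.97% and 16.02% of kept nuclei in controls and 14.3% and 15.1% in knockouts. The groups did not overlap, with means of 16.0% ± 0.0346 (SD, n = 2) and 14.7% ± 0.569 (SD, n = 2), but the exact permutation test, two-sided, gave p = 0.333, the smallest it can give with 2 mice against 2. As a percentage of nuclei with an *Lrp2* UMI the shares were 24.1% and 33.4% in controls and 20.2% and 24.99% in knockouts, and these overlapped. *Slc5a12*-high nuclei made up 17.1% and 8.91% in controls and 17.7% and 19.5% in knockouts. Control mouse 2 therefore had a share of S3-like nuclei like that of the others and the smallest share of *Slc5a12*-high nuclei, and the depth of the slice cannot be told apart from the abundance of a segment.

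**Figure D4:**
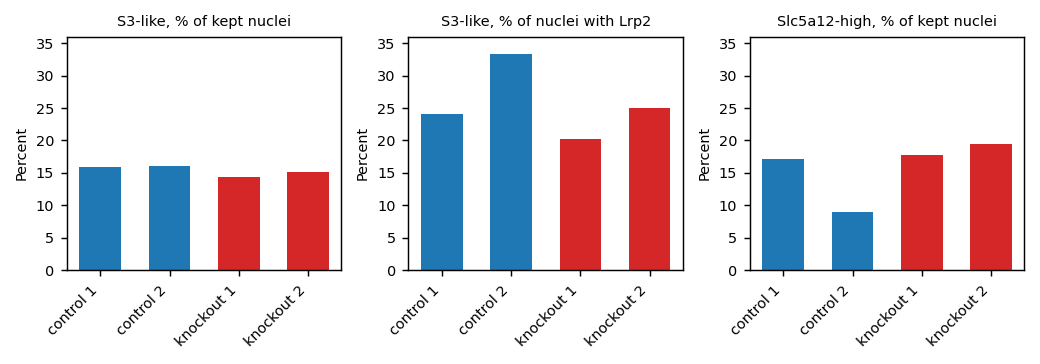
Percentage of nuclei (y axes, from 0) per mouse (x axis), blue for control and red for knockout: S3-like nuclei among kept nuclei, S3-like nuclei among nuclei with *Lrp2*, and *Slc5a12*-high nuclei among kept nuclei. S3-like nuclei span 14.3% to 16.02% of kept nuclei, while *Slc5a12*-high nuclei span 8.91% to 19.5%.

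Gene expression of S3-like nuclei was then compared between genotypes. Of 15888 genes tested, 1 was higher and 1 lower in knockouts (edgeR quasi-likelihood test, adjusted p under 0.05), which is 0.00629% each and 0.0126% together, and 164 and 315 (1.03% and 1.98%, together 3.01%) had an unadjusted p under 0.05. DESeq2 called 4 genes higher and 9 lower, and edgeR without a filter on low counts called the same 13 genes.

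The gene called higher was *Nat8f6*, a member of the family of N-acetyltransferases. It stood at 27.4 and 24.1 CPM in controls and at 177 and 169.5 in knockouts, with no overlap, a log2 difference of 2.72 (SE 0.19) and an adjusted p of 0.0478 (edgeR). It was detected in 7.93% and 8.28% of control and 37.2% and 36.3% of knockout nuclei. In *Slc5a12*-high nuclei it stood at 45.6 and 42.1 and at 78.0 and 191, a difference of 1.59 (SE 0.40) that did not pass the threshold (adjusted p = 1). The difference between the segments was not called either (1.22 (SE 0.35), adjusted p = 1). In *Slc7a13*-only nuclei *Nat8f6* stood at 108.8 and 142.5 in controls and at 311.1 and 440.8 in knockouts, above its S3-like level in each mouse. In all other kept nuclei it stood at 47.02 and 31.2 against 140.2 and 196.4. Its level in free RNA was also higher in both knockout mice than in both control mice. The higher level in knockouts was thus not limited to S3-like nuclei. The paralog *Nat8f3*, which lies 42276 bases away and was looked at after the values had been seen, stood at 79.0 and 75.8 in control and 171 and 132 in knockout mice, and reads that fit both genes could be split between them.

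The gene called lower was *Npas3*, a transcription factor of the basic helix-loop-helix PAS family. It stood at 193 and 112 in controls and at 2.01 and 2.59 in knockouts, a log2 difference of -6.07 (SE 0.41) and an adjusted p of 0.0478 (edgeR). It was found in 39.5% and 28.6% of control and 0.524% and 0.857% of knockout nuclei. The level was near the floor in both knockout mice. *Slc5a12*-high nuclei gave the same picture, with 226 and 259.7 against 2.02 and 3.65, a difference of -6.43 (SE 0.30) and an adjusted p of 0.00228 (edgeR), and it was the gene called in both. These sums come from the same mice. The difference between the segments was 0.39 (SE 0.63) and was not called. In *Slc7a13*-only nuclei *Npas3* stood at 272 and 189 in controls and at 2.99 and 0 in knockouts. In all other kept nuclei it stood at 118 and 53.6 against 2.40 and 2.64, and in free RNA at 33.7 and 14.0 against 4.76 and 1.95. The lower level in knockouts was thus not limited to S3-like or *Slc5a12*-high nuclei.

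The calls of both genes depended on the setting. They lost significance when either knockout mouse was left out, when free RNA was subtracted and with a stricter filter on low counts (filterByExpr), while the log2 difference stayed between 2.67 and 2.76 for *Nat8f6* and between -6.48 and -5.91 for *Npas3* in those settings.

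The rule for naming genes adds the next 8 genes by unadjusted p, none of them called by the edgeR test as used here. DESeq2 and edgeR without a filter on low counts called 6 of the 8, *Ptn*, *Gm29536*, *Ppm1k*, *BC018473*, *Sgcz* and *Tmem169*. *Ptn*, which encodes the growth factor pleiotrophin, stood at 1.12 and 0 in controls and at 83.2 and 84.0 in knockouts (log2 difference 6.99 (SE 0.56), adjusted p = 0.0688, edgeR). The knockout mice held 332 and 292 UMIs of it in 245 and 210 S3-like nuclei, and none in *Slc5a12*-high nuclei, which with a floor of 3 counts over the group is at least 217-fold lower. *Gm29536*, a long noncoding RNA, went the other way, at 96.0 and 154 against 5.01 and 8.63 (adjusted p = 0.0720, edgeR). In both genes the control and the knockout mice were far apart in S3-like nuclei and were all low in *Slc5a12*-high nuclei. In *Slc7a13*-only nuclei the directions were those of S3-like nuclei, with *Ptn* at 0 and 0 against 23.3 and 14.5 and *Gm29536* at 15.9 and 27.3 against 6.32 and 8.16. *Ppm1k*, the phosphatase that switches on the breakdown of branched-chain amino acids, stood at 32.1 and 36.2 against 94.0 and 141, and in *Slc7a13*-only nuclei at 33.6 and 31.6 against 56.2 and 108. *Vmn1r20*, a vomeronasal receptor gene, stood at 35.9 and 48.7 against 88.5 and 137, and the noncoding RNA *BC018473* at 31.0 and 27.1 against 109.5 and 76.6. *Sgcz*, a sarcoglycan, stood at 43.3 and 37.4 against 5.51 and 10.1, but its difference turned to 0.31 when nuclei with markers of other classes were left out. In the control mice 67 of 194 and 55 of 135 of its S3-like UMIs lay in the 5 nuclei with most. *Sgcz* was also lower in knockouts in *Slc5a12*-high nuclei (42.7 and 25.5 against 3.28 and 8.34) and in all other kept nuclei (399 and 563 against 11.4 and 30.4). Free RNA held *Sgcz* at 81.5 and 62.3 against 47.6 and 18.5, above its level in S3-like and *Slc5a12*-high nuclei of each mouse. A genotype difference of *Sgcz* in these nuclei could therefore not be judged. *Tmem169* stood at 28.3 and 43.2 against 8.27 and 4.03 and *Npas2*, a partner of the clock gene *Arntl*, at 36.2 and 44.5 against 18.5 and 15.3. The adjusted p of the last 6 was 0.674 or more.

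Among the 9 genes that DESeq2 called lower were 3 that fall outside the rule for naming genes and were picked out after their values were seen. *Lpl*, lipoprotein lipase, stood at 359.5 and 678 in controls and 141 and 78.3 in knockouts. *Irs2*, an adaptor of the insulin receptor, stood at 139 and 253 against 22.8 and 54.4, and *Gadd45g*, a stress-response gene, at 57.8 and 154 against 16.5 and 19.3. In each of the 3 genes control mouse 2 was highest and the genotypes did not overlap. Free RNA held *Lpl* at 358 and 678 in controls, near its S3-like level, and at 257 and 256 in knockouts, above it. It held *Gadd45g* at 116 and 127 against 53.2 and 57.9, and *Irs2* at 28.7 and 36.7 against 23.8 and 28.6. The part of free RNA in these differences was not tested. The 3 genes were also lower in knockouts in *Slc5a12*-high nuclei, with *Lpl* at 178 and 401 against 88.6 and 57.8. The edgeR test did not call them (adjusted p = 1, 1 and 1).

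Of the 5 genes named as higher, 4 lie on chromosome 6: *Ptn* (36714924 to 36810179, GRCm38.p6), *Vmn1r20* (57431691 to 57432602), *Ppm1k* (57506502 to 57535552) and *Nat8f6* (85808044 to 85809877). The noncoding RNA *4930533I22Rik* (57464073 to 57506503), which overlaps *Ppm1k* by 2 bases and was picked out after its values were seen, stood at 87.0 and 141 in control and 242 and 400.0 in knockout mice. Counts of *4930533I22Rik* and *Ppm1k* may share reads, and *Vmn1r20* belongs to a large family of similar genes. Chromosome 6 was looked at after these genes were seen. On it 9 of 747 genes (1.20%) had an unadjusted p under 0.01, against 8 of 741 (1.08%) on chromosome 8, 8 of 861 (0.929%) on chromosome 1 and 79 of 15888 (0.497%) on all chromosomes.

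**Figure D5:**
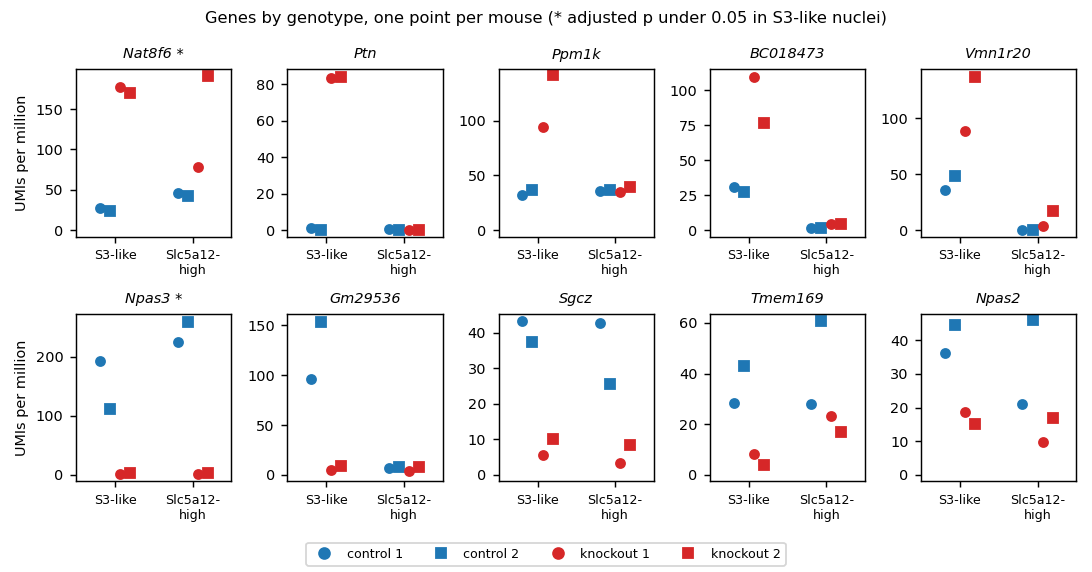
Levels in CPM (y axes, each with its own linear scale) of the 10 genes named for genotype in S3-like and *Slc5a12*-high nuclei (x axes), with 1 point per mouse, blue for control and red for knockout. An asterisk marks the 2 genes called. Control and knockout mice do not overlap in S3-like nuclei for any of the 10. The genes were picked on these values, so this is no finding, and 28.5% of all genes tested did not overlap. *Ppm1k* is alike in all 4 mice in *Slc5a12*-high nuclei. *Ptn* and *Gm29536* are low there in all 4 mice, and a genotype difference of *Gm29536* there could not be judged.

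The difference of the genotype effect between the segments, S3-like minus *Slc5a12*-high, was tested as a term of its own. The term was positive for 2 called genes and negative for 1 (0.0117% and 0.00583% of 17166, together 0.0175%). The sign does not say in which segment the effect was larger in size. *Ppm1k* differed by 1.75 (SE 0.24) in S3-like and by 0.02 (SE 0.21) in *Slc5a12*-high nuclei, a difference between the segments of 1.72 (SE 0.21) (adjusted p = 0.00941, edgeR). *Gm29536* fell by 4.22 in the former and differed by -0.33 in the latter, a difference between the segments of -3.76 (SE 0.36) (adjusted p = 0.000928, edgeR). Its level in *Slc5a12*-high nuclei was below that in free RNA in all mice but knockout 2, so a genotype difference there could not be judged. The third gene was *Slc12a3*, the salt transporter of the distal convoluted tubule, at 63.4, 62.3, 109 and 81.2 in S3-like and 83.6, 86.2, 69.4 and 47.4 in *Slc5a12*-high nuclei, with a difference of 1.12 (SE 0.16) (adjusted p = 0.0481, edgeR). Its UMIs came from few nuclei: 177 of 284, 172 of 225, 183 of 435 and 190 of 282 UMIs lay in the 5 nuclei with most. Its difference turned to -1.19 without the called doublets and to -0.34 without nuclei carrying markers of other classes. All 3 calls were lost with nuclei thinned to 1000 UMIs (1.43 for *Ppm1k*, -2.70 for *Gm29536* and 0.04 for *Slc12a3*) and without control mouse 1.

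By function, no further gene of any list was called between the genotypes. Over all genes tested, 1.03% were higher and 1.98% lower at an unadjusted p under 0.05 (edgeR), the shares beside which the list counts stand. Among 16 amino acid transporters, 0 had a higher and 1 a lower level in knockouts at an unadjusted p under 0.05, *Slc6a13*, a GABA transporter (191 and 196 against 137 and 154). Of 13 sugar and monocarboxylate transporters it was 1 and 1, *Slc13a2* (112 and 121 against 163 and 158) and *Slc5a10* (273 and 288 against 205 and 158). Of 31 fatty acid and peroxisome genes it was 1 and 3, with *Ehhadh*, the peroxisomal bifunctional enzyme, at 619.7 and 982 against 238 and 344 (log2 difference -1.49 (SE 0.29)) and *Pecr* at 388 and 408 against 229 and 122. Of 23 organic ion transporters it was 0 and 2, *Slc22a26* (63.4 and 102 against 25.3 and 53.8) and *Abcc4* (13.8 and 21.3 against 8.77 and 9.50), and of 17 cytochrome P450 and 13 uptake and phosphate genes it was 0 and 0. Of 12 gluconeogenesis and ammonia genes it was 1 and 0: *Pck1* stood at 417 and 426 in control and 751 and 732 in knockout mice (0.79 (SE 0.17)). Of 21 brush border and glutathione genes it was 1 and 2, and *Gclc* stood at 785 and 3258 against 449.9 and 442, with control mouse 2 far above the other mice. Of 24 transcription factors it was 1 and 1. The median log2 difference of these lists lay between -0.14 and 0.18, against 0.01 over all genes tested.

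The clock list had 1 gene higher and 2 lower of 17 at an unadjusted p under 0.05, against 1.03% and 1.98% of all genes. *Npas2* and *Arntl*, which form the activating arm, stood at 36.2 and 44.5 against 18.5 and 15.3 and at 28.3 and 25.5 against 15.3 and 14.1. *Per2*, of the repressing arm, stood at 25.4 and 32.7 against 41.6 and 87.2, with knockout mouse 2 well above the others. Control and knockout mice did not overlap for 7 higher and 2 lower genes of the 17, against 15.9% and 12.6% of all genes (28.5% together). The adjusted p of these genes was 1 after rounding, and the time of day at which kidneys were taken was not given in the sources used here. Immediate early and heat shock genes had 0 higher and 1 lower of 14. Injury genes had 0 higher and 2 lower of 14, with a median log2 difference of -0.55. The 2 were *Vim*, a gene of the cytoskeleton (4.46 and 11.1 against 1.504 and 1.44), and *Krt18*, a keratin (8.48 and 10.8 against 4.51 and 3.17). Both rest on few nuclei. Without thinning, *Vim* had a UMI in 0.566, 0.575, 0.524 and 0.321% of S3-like nuclei and *Krt18* in 1.94, 1.95, 1.22 and 0.7495%. *Havcr1* stood at 26.3 and 47.6 in control and 43.9 and 48.6 in knockout mice, a difference of 0.31 (SE 0.29). Of the genes the study names, *Tfap2b* stood at 8.26, 9.13, 10.8 and 10.4, *Wnt9b* at 1.56, 3.87, 2.01 and 0.576 and *Alcam* at 45.1, 74.4, 51.6 and 94.4, and none of them was called.

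Of the 10 androgen-response genes, 6 were higher and 4 lower in S3-like than in *Slc5a12*-high nuclei, with a median of 0.64, and 2 of them followed the number of the mouse. *Kap*, the kidney androgen-regulated protein, stood at 34019.7 and 13515 in controls and at 35991 and 13462 in knockouts, a genotype difference of 0.03 (SE 0.59). *Odc1*, ornithine decarboxylase, stood at 272 and 92.4 against 325 and 48.3. In both genes the number 1 mice were high and the number 2 mice low within each genotype, as were the share of free RNA and the mitochondrial percentage. Free RNA held *Kap* at 78852, 67684, 77425 and 34499, and its part in these levels was not tested. Of the 10 genes of the list, 0 were higher and 2 lower at an unadjusted p under 0.05, *Aoc1*, a diamine oxidase, at 98.9 and 195 against 61.4 and 93.5, and *Acsm3* at 1023 and 1046 against 806 and 520.0.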

How the data were processed

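Nuclei were isolated from a middle slice of the kidney of 4 mice and sequenced as 1 droplet library each. Per the labels and the study's methods, the authors aligned reads to mm10 with Cell Ranger 3.0.2 and forced 10000 cells per library, and Seurat is named for later steps that were not used here. The deposited values are raw UMI counts per gene and barcode, 31053 genes by 6794880 barcodes, with 22179410 to 44964099 UMIs per library. Here the 10000 barcodes with most UMIs were taken and nuclei with 501 to 3999 genes and under 5% mitochondrial UMIs kept. Members were then found by the rule given with the results. Called doublets stayed in (Scrublet in scanpy 1.11.5, with an expected 0.8% per 1000 nuclei) and were left out in an alternative.

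Counts were summed per mouse and group, so that n is 2 mice per genotype. Genes with at least 10 UMIs were tested with the edgeR 4.0.16 quasi-likelihood test (R 4.3.3, TMM scaling, Benjamini-Hochberg adjustment, threshold 0.05), and SEs were derived from the F statistic. The segment fits had the mouse as a term. DESeq2 1.42.0 was an alternative. The scripts were tested on simulated data with 200 changed genes. There the genotype test recovered 13% of 2-fold and 80% of 4-fold changes, and 13 of its 106 calls were false. For the segment by genotype term 50% and 79% were recovered, and 18 of 147 calls were false. A gene not called is therefore not read as unchanged. Shares of nuclei were compared by an exact permutation test (scipy 1.17.1).

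Named genes were, for genotype, those called with no overlap, filled to 5 per direction by unadjusted p, for the segment the 10 called per direction with the largest difference, a mean of at least 50 CPM in the higher segment and 1 sign in 4 of 4 mice, for the segment by genotype term those called, and members of the gene lists. The members, lists and tests were chosen with earlier results of these data known. The alternatives tried were another tool, scaling and filter, a stricter gate, nuclei thinned to 1000 UMIs, under 1% mitochondrial UMIs, no mixed nuclei, no doublets, free RNA subtracted, each mouse left out and a block by replicate number. P-values measure the spread between these mice. Some genes and sequences are not reported here.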

Additional observations from a re-analysis of the deposited data

Results flagged for a closer look

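The genotype difference was not the same in S3-like and *Slc5a12*-high nuclei for 3 genes, by the test of the segment by genotype term (edgeR, 17166 genes). The term was -3.76 for *Gm29536* (adjusted p = 0.000928), 1.72 for *Ppm1k* (adjusted p = 0.00941) and 1.12 for *Slc12a3* (adjusted p = 0.0481). *Gm29536* stood at 96.0, 154, 5.01 and 8.63 CPM in S3-like nuclei of the mice in the order control 1, control 2, knockout 1 and knockout 2, and at 7.12, 7.66, 3.78 and 8.08 in *Slc5a12*-high nuclei. *Ppm1k* stood at 32.1, 36.2, 94.0 and 141 and at 35.3, 36.4, 34.6 and 39.1. For both genes the groups were apart in S3-like nuclei and overlapped in *Slc5a12*-high nuclei. Free RNA held *Gm29536* at 20.6, 16.0, 12.7 and 4.55, above its level in *Slc5a12*-high nuclei in all mice but knockout 2. A genotype difference of *Gm29536* in *Slc5a12*-high nuclei could therefore not be judged. The UMIs of *Slc12a3* lay in few nuclei, and its term changed sign without doublets. With nuclei thinned to 1000 UMIs none of the 3 terms was called (adjusted p = 0.614 for *Gm29536*, 0.714 for *Ppm1k* and 1 for *Slc12a3*, edgeR), nor without control mouse 1 (0.160, 0.919 and 0.919). The call of *Ppm1k* was also lost with DESeq2 (adjusted p = 0.0774), with filterByExpr (0.0573) and without control mouse 2 (0.111). *Slc12a3* was not called in these 3 settings or with free RNA subtracted either, while *Gm29536* was called in all 4.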

How the results depend on the processing

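With 2 mice per genotype, the counts of genes called by genotype moved with most settings. The number higher and lower in the knockout mice, 1 and 1 as reported, was 4 and 9 with DESeq2, 4 and 9 without a filter on low counts, 0 and 0 with filterByExpr, 0 and 0 with free RNA subtracted, and 2 and 2 without TMM scaling, without mixed nuclei, with the stricter gate, with thinned nuclei and at an adjusted p under 0.1. Without doublets and with under 1% mitochondrial UMIs it was 2 higher. Leaving out 1 mouse gave 0 to 4 higher and 0 to 7 lower, with 0 of each without either knockout mouse. *Nat8f6* and *Npas3* kept their direction in every setting. *Sgcz* reversed to 0.31 without mixed nuclei.

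Against *Slc7a13*-only nuclei, a comparison added after seeing the data, 2075 genes were higher and 1919 lower. Without the mouse as a term 2081 genes were lower in S3-like than in *Slc5a12*-high nuclei, and with thinned nuclei 2176 were higher. For the segment by genotype term, 2 higher and 1 lower as reported, there was 1 higher with DESeq2, 0 with filterByExpr and 1 without mixed nuclei. The counts were 1 and 3 without doublets, 4 and 7 with free RNA subtracted, 12 and 32 without a filter, 1 and 2 with thinned nuclei (*Irs2*, *Pecr* and *Slc8a1*, with 0 of the 3 genes reported), and 5 and 6 with under 1% mitochondrial UMIs. Leaving out 1 mouse gave 0 to 34 higher and 0 to 54 lower, with 33 and 54 without knockout mouse 1 and 34 and 27 without knockout mouse 2. *Slc12a3* reversed to -1.19 without doublets and -0.34 without mixed nuclei. The cause of these moves was not tested. The difference in the share of S3-like nuclei kept its sign in every setting run.

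The labels give both genotypes replicate numbers 1 and 2. With the replicate block, 7 genes were higher and 16 lower. Deviations of same-numbered mice correlated at 0.637 over 5594 genes, and depth, free RNA and mitochondrial share also went with the number. No label says what a number stands for and there are only 2 pairs, so the mice were not treated as pairs, and what same-numbered mice share is not known.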

Other observations

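Apart from *Kap* and *Odc1*, the libraries of same-numbered mice resembled each other in depth. The number 1 libraries held 42138345 and 44964099 UMIs and the number 2 libraries 24998797 and 22179410, and kept nuclei held 51.8% and 48.2% of the UMIs in the former against 64.6% and 84.3% in the latter.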
